A study of Homo sapiens with 12 samples.

Results

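The genes described here are the 10 members of the MYC, MAX and MXD network that carry the symbols MYC, MYCN, MYCL, MAX, MXD1, MXI1, MXD3, MXD4, MNT and MGA. They were taken by symbol from the 28278 genes of a count table. MYC, MYCN and MYCL are transcription factors that drive cell growth and bind DNA only as a dimer with MAX. MXD1, MXI1, MXD3, MXD4 and MNT compete with them for MAX, and their dimers recruit the SIN3 histone deacetylase complex to the same DNA element, the E-box CACGTG. MGA also pairs with MAX, as part of a Polycomb repressor complex. In erythroid and other blood precursors the exchange of MYC for MXD proteins is a classical step in the exit from proliferation, and in K562 cells forced MYC expression is known to oppose differentiation.

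RNA was sequenced from K562, a human erythroleukaemia line, and every group shares this background. WT cells, with the heme transporter HRG1 (gene SLC48A1) intact, and KO cells, in which it was knocked out, were each left untreated or given sodium butyrate, a histone deacetylase inhibitor that drives K562 towards the erythroid lineage. Treated cells received 0.75 mM at 24 h after plating and again 48 h later, and RNA was taken 6 h after that. The design text places all samples at day 8 of differentiation. Each of the 4 groups, untreated WT, butyrate-treated WT, untreated KO and butyrate-treated KO, held 3 libraries. The number of KO clones, how the knockout was made, whether the untreated cells received a vehicle and whether replicates were separate cultures are not given in the sources used here, so the p-values measure the spread between these libraries, which may be technical, and a KO difference cannot be told apart from a difference between clones.

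Library totals ran from 19963594 to 30348538 counts. SLC48A1 was at 73.7 ± 8.41 CPM (counts scaled to library size by TMM; SD, n = 3) in untreated WT and 5.94 ± 2.74 in untreated KO, and at 67.8 ± 13.9 and 8.03 ± 2.03 in the treated pair. Libraries with the same replicate number deviated together from their group means, and the library numbered 1 was the highest of each group on the second principal component. The treated WT library numbered 1 lay at 36.7 on the second principal component, inside the range of 20.5 to 70.4 of the 6 untreated libraries, and the treated KO library numbered 1 lay at 4.40, while the other 4 treated libraries lay between -83.7 and -72.9. The share of counts on the ribosomal RNA gene RNA28SN5 was 2.30% to 5.63% in the libraries numbered 1 and 0.673% to 2.87% in the rest. The 8 erythroid markers, which include GATA1, KLF1 and the fetal globins, were all detected in every library. Their summed level was 5709 to 11840 CPM in untreated WT, 15860 to 33210 in treated WT, 3308 to 5973 in untreated KO and 4133 to 5695 in treated KO, so it was highest in treated WT and lower in KO than in WT at each treatment. Markers of other cell types summed to far less, at 5.83 to 58.5 CPM in untreated and 56.6 to 225 CPM in treated libraries for 6 megakaryocyte genes, 2.03 to 16.5 and 49.4 to 160 CPM for 5 stromal and endothelial genes, 13.4 to 134 CPM for 5 myeloid genes and 4.07 to 13.1 CPM for 4 lymphoid genes. The part that erythroid state, the replicate number or ribosomal RNA has in the results below was not tested.

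Of the 10 members, 9 had enough counts to be tested and MYCN did not. The comparison of the whole network gave 1 call at an adjusted p of 0.05: MXD1 was lower in treated KO than in treated WT cells. MAX lay above untreated cells in all 6 pairs of treated and untreated libraries with the same number, and passed the threshold once the replicate number was in the model. MYC was higher in untreated KO than in untreated WT without overlap but short of the threshold, and neither MYC nor MNT had a treatment response that held across replicate numbers. With edgeR 0 members were called for butyrate in WT (0 at an unadjusted p under 0.05), and 0 for butyrate in KO, butyrate averaged over the genotypes and KO against WT untreated (1 member each at an unadjusted p under 0.05). DESeq2 called 0, 0, 1 and 0 in the same order. Against these, edgeR's quasi-likelihood test with Benjamini-Hochberg adjustment called 2.35% of the 15805 tested genes for butyrate in WT, of which 1.8% were higher and 0.55% lower. It called 3.4% for butyrate in KO (2.8% higher, 0.595% lower), 22.6% for KO against WT in untreated cells (11.7% higher, 10.9% lower) and 19% in treated cells (10.1% higher, 8.89% lower). Averaged over the genotypes, butyrate gave calls for 14.6% of genes (9.22% higher, 5.37% lower). The interaction, the difference between KO and WT cells in their response to butyrate, gave calls for 0% of genes in edgeR, where 658 genes had an unadjusted p under 0.05, and for 86 genes in DESeq2.

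**Figure D1:**
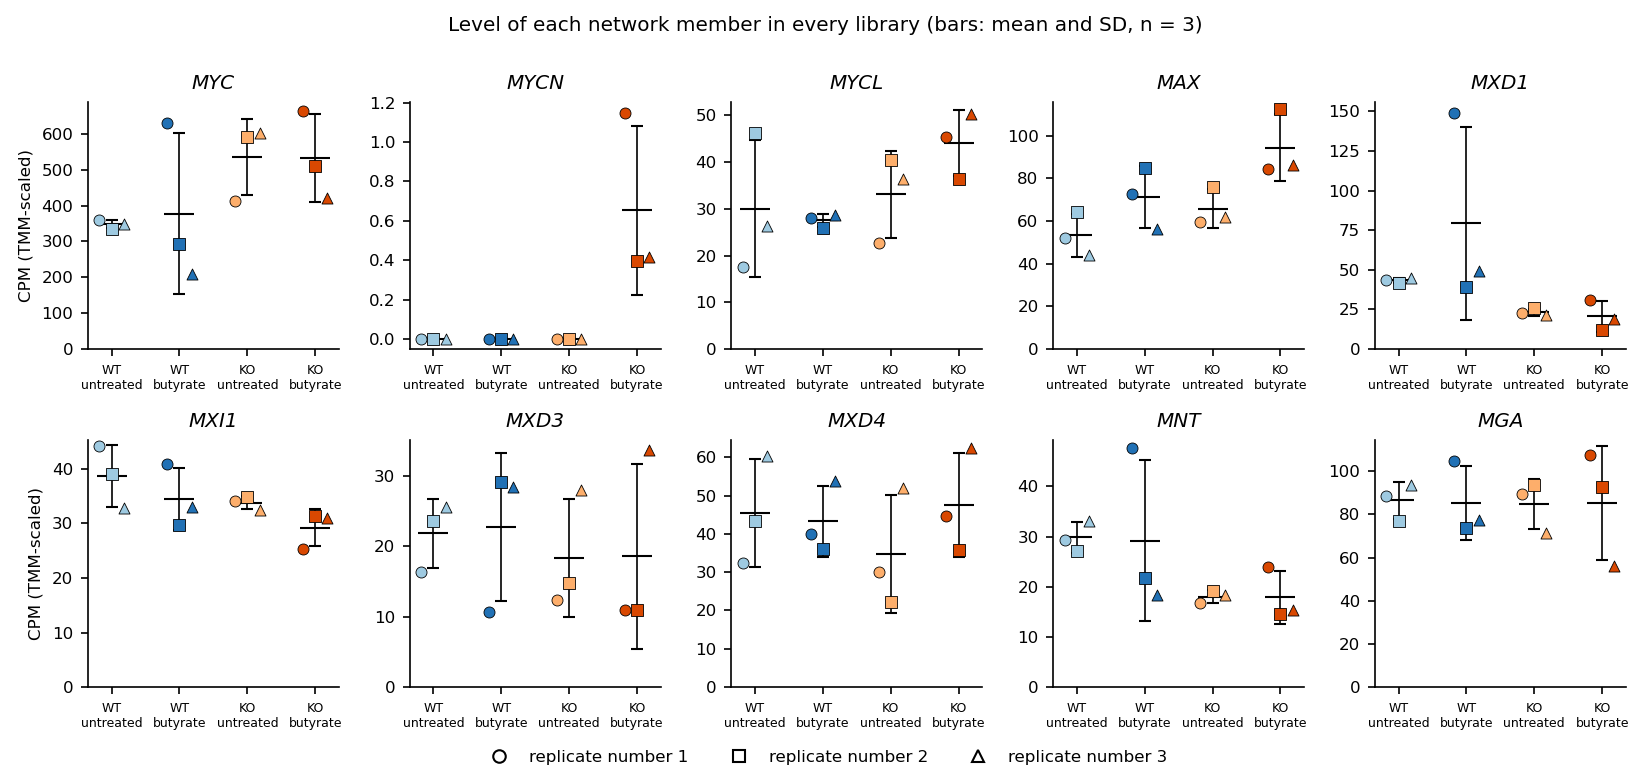
Level of each of the 10 members in CPM (vertical axes, each with its own scale) in the 4 groups, with 1 point per library, its replicate number as the point's shape, and the mean and SD (n = 3) as bars. MXD1 is lower in every KO library than in every WT library, MAX is highest in treated KO at 84.4 to 113 CPM, and MYCN is above 0 only in treated KO.

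Levels can be compared between genes only per length, for which CPM were divided by the merged exon length in kilobases (RPKM). In untreated WT the order was MYC at 116 RPKM, MAX at 13.0, MXD4 at 11.2, MXI1 at 9.55, MXD1 at 7.71, MXD3 at 6.64, MYCL at 6.06, MNT at 5.97 and MGA at 5.70, with MYCN at 0. MYC stood far above the rest, with its lowest library at 112 RPKM and the highest MAX library at 15.6. Below MYC no sharp steps followed: the ranges of MAX (10.7 to 15.6 RPKM), MXD4 (7.98 to 14.9) and MXI1 (8.09 to 10.9) overlapped, and so did those of MXD3, MYCL, MNT and MGA. MYC made up 92.3% to 97.4% of the summed RPKM of the 3 MYC genes in every library. The transcript of MAX, the shared partner, was therefore far less abundant per length than that of MYC, with a ratio of MYC to MAX of 7.16 to 10.9 in untreated WT.

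**Figure D2:**
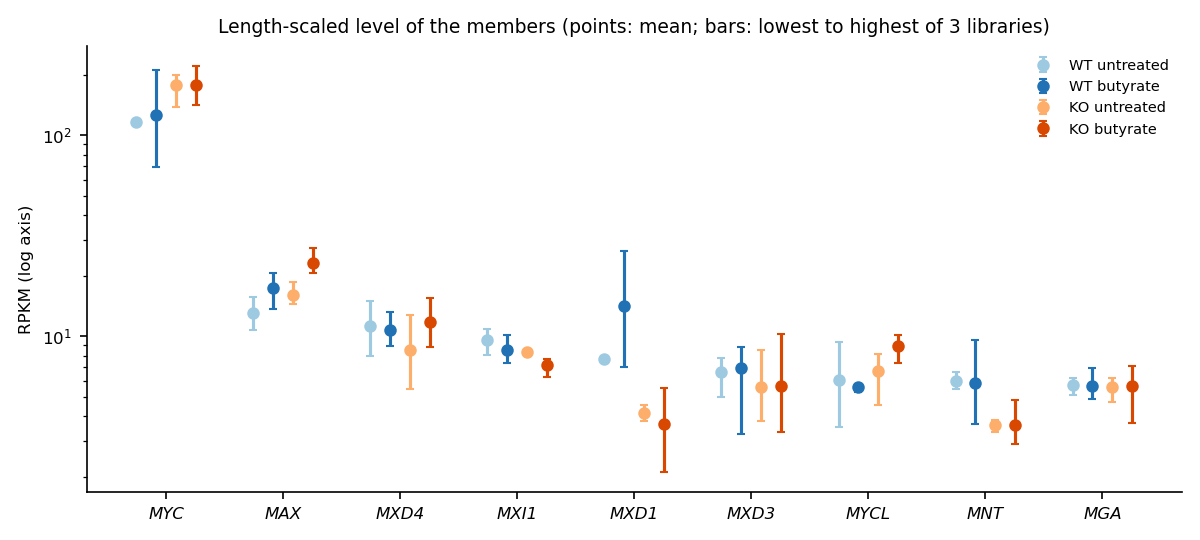
Length-scaled level (RPKM, logarithmic vertical axis) of the 9 members other than MYCN, ordered by their mean in untreated WT, with the mean of each group as a point and the lowest and highest of its 3 libraries as bars. MYC lies at 69.3 RPKM or above in every library, while no other member passes 27.4 RPKM, and the MXD1 bars of the KO groups lie below those of the WT groups.

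MXD1 encodes the MXD repressor that is classically induced when blood cells stop dividing and mature. The gene lies on the plus strand of chromosome 2 (GRCh38, 2:69897688-69942945). In untreated WT cells it was at 43.7, 41.6 and 44.6 CPM in replicates 1, 2 and 3, and in untreated KO cells at 22.7, 25.6 and 21.3 CPM. With butyrate, the WT libraries were at 149, 39.2 and 49.3 CPM and the KO libraries at 30.9, 11.8 and 18.9 CPM. Every KO library thus lay below every WT library of the same treatment, and 1 WT library, treated replicate 1, lay far above the others of its group.

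In treated cells the KO level of MXD1 was 0.259 times the WT level, a log2 fold change of -1.95 (SE 0.46, adjusted p = 0.0102). This was the single call among the 9 tested members in that comparison. The difference was found in each same-numbered pair, at -2.27, -1.73 and -1.38 on the log2 scale for numbers 1, 2 and 3. Without the high WT library the log2 fold change was -1.12 (adjusted p = 0.0227), and MXD1 passed the threshold in all 13 alternative analyses, with a highest adjusted p of 0.0439.

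In untreated cells MXD1 was also lower in KO, at a log2 fold change of -0.90 (SE 0.45), with an adjusted p of 0.174 that misses the threshold. The 3 same-numbered pairs gave -0.94, -0.70 and -1.07. Without the libraries numbered 1 the value was -0.90 (adjusted p = 0.0244). The difference between the genotypes in their butyrate response was -1.05 (SE 0.63, adjusted p = 1.00), and was -0.19 without treated WT replicate 1. That fit kept treated KO replicate 1, the highest of its group. Within each number the gap was wider in treated than in untreated cells. It was -2.27 against -0.94 for number 1, -1.73 against -0.70 for number 2 and -1.38 against -1.07 for number 3.

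MYC, a transcription factor that drives cell growth, lies on the plus strand of chromosome 8 (GRCh38, 8:127735434-127741434). It was at 359, 335 and 350 CPM in untreated WT and at 414, 590 and 601 CPM in untreated KO. With butyrate it was at 631, 293 and 208 CPM in WT and at 664, 511 and 422 CPM in KO. In untreated cells the genotypes did not overlap. In treated cells they did, because WT replicate 1 lay above 2 of the 3 KO libraries.

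The MYC difference between untreated KO and WT was 0.62 on the log2 scale (SE 0.34, adjusted p = 0.223), and did not pass the threshold. In treated cells it was 0.50 (SE 0.34, adjusted p = 0.362). The KO library was the higher in 6 of 6 same-numbered pairs, by 0.21, 0.81 and 0.78 in untreated and by 0.07, 0.80 and 1.02 in treated cells. The pairs numbered 1 were the smallest in both. Without the 4 libraries numbered 1, MYC was called higher in KO, by 0.78 when untreated (adjusted p = 0.0290) and by 0.88 with butyrate (adjusted p = 0.0192). Leaving out treated WT replicate 1 alone gave 1.08 (adjusted p = 0.0118) in treated cells.

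For the butyrate response of MYC the mean hid opposite movements. The fitted log2 fold change was 0.12 in WT (SE 0.34, adjusted p = 0.905) and -0.01 in KO (SE 0.34, adjusted p = 1.00). By replicate number the differences were 0.82, -0.20 and -0.75 in WT and 0.68, -0.21 and -0.51 in KO. In both genotypes the treated library numbered 1 was thus above its untreated partner and those numbered 2 and 3 were below. The treated libraries numbered 1 also stood apart from the other treated libraries on the second principal component. Without the libraries numbered 1 the value averaged over genotypes was -0.42 (adjusted p = 0.0761).

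**Figure D3:**
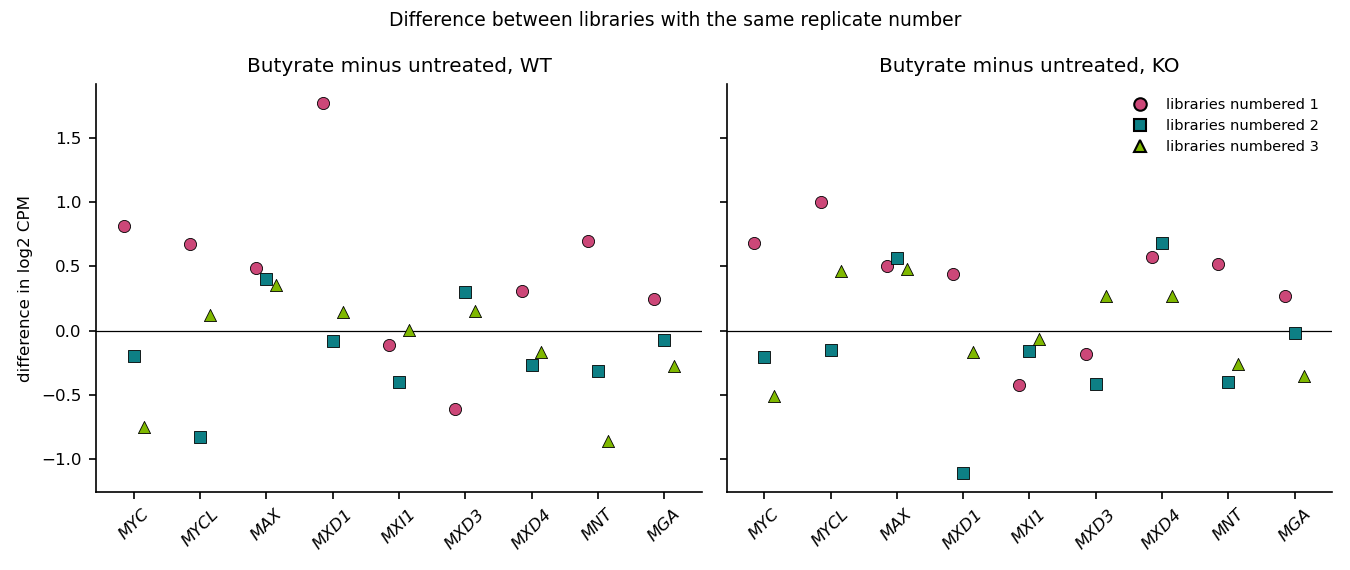
Difference in log2 CPM between the treated and the untreated library of the same replicate number (vertical axis) for the 9 tested members (horizontal axis) in WT and KO cells. The 6 MAX values lie between 0.36 and 0.56, whereas for MYC and MNT the pairs numbered 1 are above 0 and those numbered 2 and 3 below 0 in both genotypes.

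MAX, the shared partner of the other members, lies on the minus strand of chromosome 14 (GRCh38, 14:65006174-65102695). Its levels were 51.9, 64.1 and 43.9 CPM in untreated WT and 72.8, 84.8 and 56.2 CPM in treated WT. In KO they were 59.5, 76.2 and 61.7 CPM untreated and 84.4, 113 and 86.1 CPM treated. The treated KO libraries all lay above the untreated KO libraries, whereas the WT groups overlapped. Replicate 2 was the highest in each of the 4 groups.

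Averaged over the genotypes, butyrate gave a MAX log2 fold change of 0.47 (SE 0.15, adjusted p = 0.0561), just short of the threshold. With the replicate block it was 0.47 (adjusted p = 0.00686), and in KO alone 0.51 (adjusted p = 0.0411). The same block raised the share of all genes called from 14.6% to 26.5% for the averaged contrast and to 11.7% for KO alone. By replicate number the difference was 0.49, 0.40 and 0.36 in WT and 0.50, 0.56 and 0.48 in KO. MAX was the 1 member whose treated library was the higher in all 6 pairs. The genotype difference for MAX, at 0.30 (adjusted p = 0.349) untreated and 0.40 (adjusted p = 0.223) treated, did not pass the threshold.

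MYCN, the MYC gene best known from neuroblastoma, had 0 counts in 9 libraries and 25, 12 and 13 counts in treated KO replicates 1, 2 and 3. That is 1.15, 0.396 and 0.419 CPM. Counted against a floor of 3 counts per library, its mean in treated KO was at least 4.87-fold higher than in untreated KO and at least 5.18-fold higher than in treated WT. It did not reach the minimum for testing. With no filter on low counts edgeR gave an adjusted p of 0.101 for butyrate in KO and 0.0391 for KO against WT in treated cells.

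MYCL, the third MYC gene, was at 17.5, 46.2 and 26.3 CPM in untreated WT, 28.1, 25.9 and 28.6 in treated WT, 22.6, 40.4 and 36.4 in untreated KO and 45.4, 36.4 and 50.4 in treated KO. All 3 treated KO libraries lay above the treated WT libraries, with a log2 fold change of 0.68 (SE 0.32, adjusted p = 0.171). Untreated libraries overlapped between the genotypes.

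MNT, a broadly expressed antagonist of MYC, was at 29.2, 27.1 and 33.2 CPM in untreated WT and at 16.7, 19.1 and 18.4 CPM in untreated KO. With butyrate it was at 47.6, 21.8 and 18.3 CPM in WT and at 24.0, 14.5 and 15.3 CPM in KO. The untreated genotypes did not overlap, and the log2 fold change of KO against WT was -0.73 (SE 0.33, adjusted p = 0.143). Treated cells gave -0.70 (adjusted p = 0.171), which was -0.17 without treated WT replicate 1. The same-numbered treated pairs gave -0.98, -0.58 and -0.26 for numbers 1, 2 and 3. Without the libraries numbered 1 the untreated difference was -0.71 (adjusted p = 0.0376).

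The butyrate differences of MNT had the same signs by number as those of MYC, at 0.70, -0.32 and -0.86 in WT and 0.52, -0.40 and -0.26 in KO. Without the libraries numbered 1 MNT was called lower with butyrate, at -0.48 averaged over the genotypes (adjusted p = 0.0424). With all libraries the value was -0.02 (adjusted p = 0.977).

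The other MXD repressors were called in no contrast in the edgeR fit to all libraries. MXI1, also known as MXD2, lay between 25.3 and 44.1 CPM over all libraries, with butyrate values of -0.17 (adjusted p = 0.716) in WT and -0.21 (adjusted p = 0.598) in KO on the log2 scale. Its treated KO libraries, at 25.3, 31.3 and 31.0 CPM, all lay below the untreated ones, at 32.5 to 34.9 CPM. MXD3, which unlike its relatives is known to be expressed in dividing cells, ranged from 10.7 to 33.8 CPM, and its spread followed the replicate number: the libraries numbered 3 were all at 25.6 CPM or above and those numbered 1 all at 16.4 or below.

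MXD4 ranged from 22.2 to 62.4 CPM and was highest in the library numbered 3 of every group. Its log2 fold change for butyrate was -0.07 in WT (adjusted p = 0.949) and 0.46 in KO (adjusted p = 0.489). MGA had group means of 86.5, 85.2, 84.9 and 85.4 CPM in untreated WT, treated WT, untreated KO and treated KO. The 4 MGA contrasts between groups lay between -0.03 and 0.01 on the log2 scale, each with an SE of 0.24, although single libraries ran from 56.2 to 108 CPM.

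**Figure D4:**
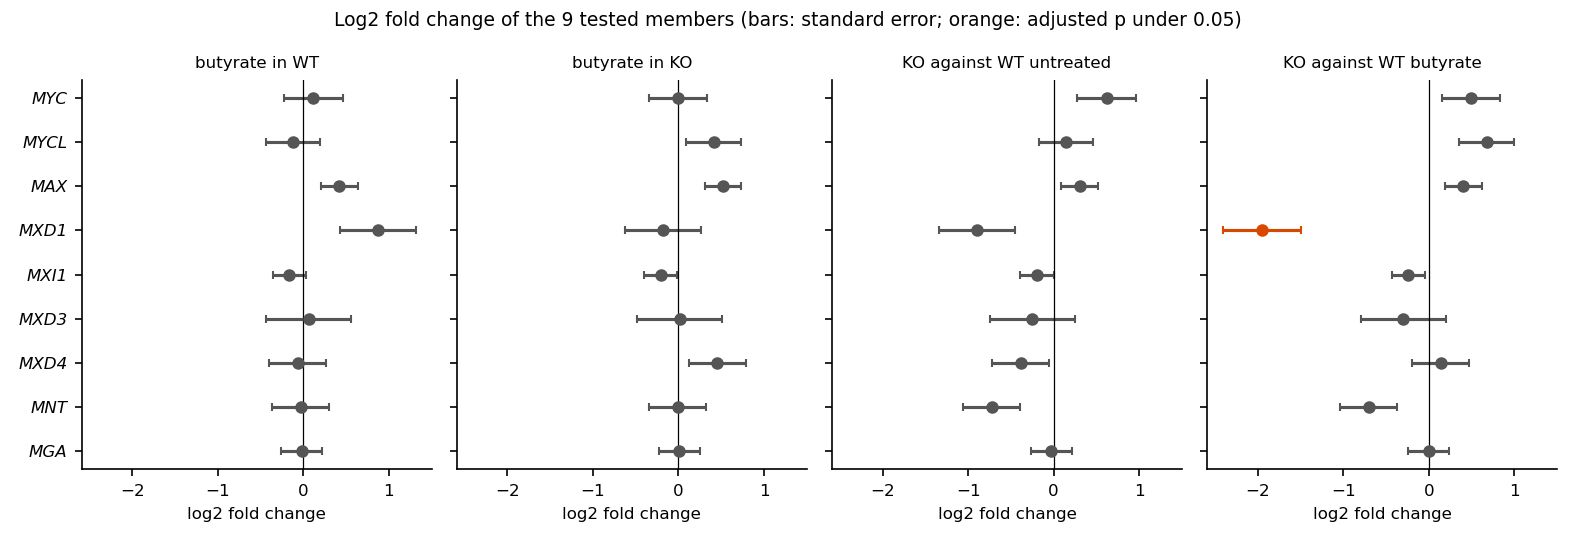
Log2 fold change (horizontal axes) of the 9 tested members in the 4 contrasts between groups, with the standard error as bars and a call at an adjusted p under 0.05 in orange. MXD1 in treated KO against treated WT, at -1.95, is the single call.

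Counts of groups without overlap put these values beside the rest of the transcriptome. For butyrate in WT 0 of the 9 members separated, against 21.7% of all tested genes. For butyrate in KO 2 did, MAX upwards and MXI1 downwards, against 24.3%. MYC, MXD1 and MNT separated between the untreated genotypes, 3 of 9 against 42.6%, and MXD1 and MYCL between the treated genotypes, 2 of 9 against 34%. The shares among the members were thus at or below those of all genes. Without the libraries numbered 1, where MYCN also passed the filter, calls were made for 1 of 10 members in the averaged butyrate contrast (28.8% of all genes), 3 of 10 in the untreated genotype contrast (26.2%) and 2 of 10 in the treated one (24.7%).

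The balance of the network was described as the RPKM of MYC over the summed RPKM of MXD1, MXI1, MXD3 and MXD4. In untreated WT it was 3.78, 3.20 and 3.01, and in untreated KO 5.84, 8.51 and 6.05. In treated cells it was 4.23, 3.04 and 1.79 in WT and 8.48, 7.74 and 3.83 in KO. The untreated genotypes did not overlap, and in treated cells the KO library of each number was the higher. MYC over MXD1 alone was 14.7 to 15.4 in untreated WT and 34.1 to 52.8 in untreated KO. MXD1 made up 20.5% to 24.6% of the MXD sum in untreated WT, 53.4% in treated WT replicate 1, and 9.20% to 21.1% in treated KO. These ratios describe transcripts, and were given no test.

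Genes with the most similar profile were found as the smallest root mean square difference of centred log2 CPM over the 12 libraries. For MYC these were SOX12 (0.169), TTLL12 (0.187), CXXC5 (0.197), RBM15B (0.203) and HNRNPA0 (0.214), against a spread of MYC itself of 0.491. For MXD1 they included SOX15 (0.315) and AMMECR1 (0.333), against 0.877 for MXD1 itself. MAX was nearest to MARK3 (0.181), RAI14 (0.184) and PLBD2 (0.191), and MNT to ZNF746 (0.165), SRSF6 (0.166) and LPIN2 (0.186). MXI1 was nearest to YIF1A, PGD and ASF1A, MGA to NAF1, SLC35A4 and PCNX3, MYCL to NMNAT1, GMDS-DT and CSNK2A2, MXD3 to DNAJC4, IGBP1 and GOLGA2P5, and MXD4 to PHYH, NECAP2 and RNF103.

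The E-box CACGTG, which reads the same on both strands, was searched in promoter windows from 250 bases before to 50 after the RefSeq start (GRCh38.p14). Of the 10 members 9 had a window, and 2 of the 9 held the motif, MXD4 and MNT. It was in 7.43% of the 27305 windows in the table and in 9.77% of the 11688 windows of tested genes. Among textbook MYC target genes it was in 9 of 22 windows (40.9%) of a nucleolar list and in 10 of 24 (41.7%) of a growth and metabolism list. The windows of the 2 members and of APEX1, a DNA repair target gene with 3 copies, are printed with the motif in capitals, 5′ to 3′ on the strand of the gene, because both MYC and MXD dimers are known to bind this element. A match is a description of letters and not a bound site.
MXD4, chr4:2262312-2262359, minus strand, motif 238 bases before the start: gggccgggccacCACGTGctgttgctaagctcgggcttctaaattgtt
MNT, chr17:2401218-2401283, minus strand, motif 193 bases before the start: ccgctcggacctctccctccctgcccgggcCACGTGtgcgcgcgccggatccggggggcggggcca
APEX1, chr14:20455091-20455156, plus strand, motif 105 bases before the start: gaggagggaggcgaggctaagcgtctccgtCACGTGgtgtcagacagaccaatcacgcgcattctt

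Target genes that MYC is known to activate had mostly negative butyrate values. Of 27 tested growth and metabolism genes, 0 were called higher and 6 lower in the averaged contrast, where 5.37% of all tested genes were called lower, and the list's median log2 fold change was -0.46 against 0.03 for all tested genes. The calls with the largest falls were the cell cycle gene CCND2 (-1.07, adjusted p = 0.00773), the mitochondrial folate enzyme gene MTHFD2 (-1.02, adjusted p = 0.0225) and the serine to glycine enzyme gene SHMT2 (-0.85, adjusted p = 0.0251). PRPS2, GART and PAICS, of purine synthesis, were the other 3. With the replicate block 15 of the 27 were called lower, against 12% of all genes.

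CCND2 shows the pattern by library: it was at 108, 102 and 54.2 CPM in untreated WT and 35.3, 41.2 and 37.8 in treated WT, and at 85.9, 112 and 113 in untreated KO and 36.7, 48.1 and 79.0 in treated KO. All 6 treated libraries lay below the untreated libraries of their genotype. Of the 28 genes of the nucleolar list, most of which serve ribosome assembly, 26 had negative values in the averaged contrast and the median was -0.36. WDR12 alone was called (-0.63, adjusted p = 0.0231), where 5.37% of all tested genes were called lower. With the block 12 of the 28 were called lower and 0 higher, where 12% of all genes were called lower.

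Between the genotypes the same lists had positive medians in the fit to all libraries. In untreated cells 3 of 27 growth genes were called higher in KO, a share near the 11.7% of all tested genes, and 0 lower, with a median of 0.46 against 0.02 for all genes: the CTP synthase gene CTPS1 (1.63, adjusted p = 0.0190), APEX1 (1.15, adjusted p = 0.00982) and the mitochondrial chaperone gene HSPD1 (0.94, adjusted p = 0.0456). APEX1, whose E-box window is printed above, was at 143, 137 and 124 CPM in untreated WT and 400, 239 and 256 CPM in untreated KO. In treated cells CTPS1, the telomerase gene TERT and APEX1 were called higher, again a share near the 10.1% of all tested genes, with a list median of 0.30. CTPS1 kept its call in treated cells in 2 of 6 fits that left out a library: its value was 2.17 (adjusted p = 0.00269) without treated WT replicate 1 and 1.18 (adjusted p = 0.103) without treated KO replicate 1. With the block 9 of 27 were called higher in untreated cells (16.9% of all genes) and 8 in treated cells (15.6%).

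The nucleolar list had medians of 0.22 in untreated and 0.27 in treated cells for KO against WT. The nucleostemin gene GNL3 was called higher in both (0.98, adjusted p = 0.0475, and 1.10, adjusted p = 0.0332), and TBRG4 lower in untreated cells (-0.76, adjusted p = 0.0452). In untreated cells 1 of the 28 genes was thus higher and 1 lower, against 11.7% and 10.9% of all tested genes. In treated cells 1 was higher and 0 lower, against 10.1% and 8.89%. With the block 10 genes of this list were called higher (16.9% of all genes) and 2 lower in untreated cells, and 7 higher (15.6%) and 1 lower in treated cells. In treated cells the pair numbered 1 did not share the positive medians: the growth list had a median difference of -0.01 (12 genes higher and 15 lower in KO) and the nucleolar list of -0.04 (12 higher, 16 lower), against 0.49 and 0.51 in the pair numbered 2 and 0.47 and 0.54 in that numbered 3. In untreated cells the growth medians were 0.50, 0.47 and 0.45 and the nucleolar medians 0.21, 0.64 and 0.10 for numbers 1, 2 and 3.

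**Figure D5:**
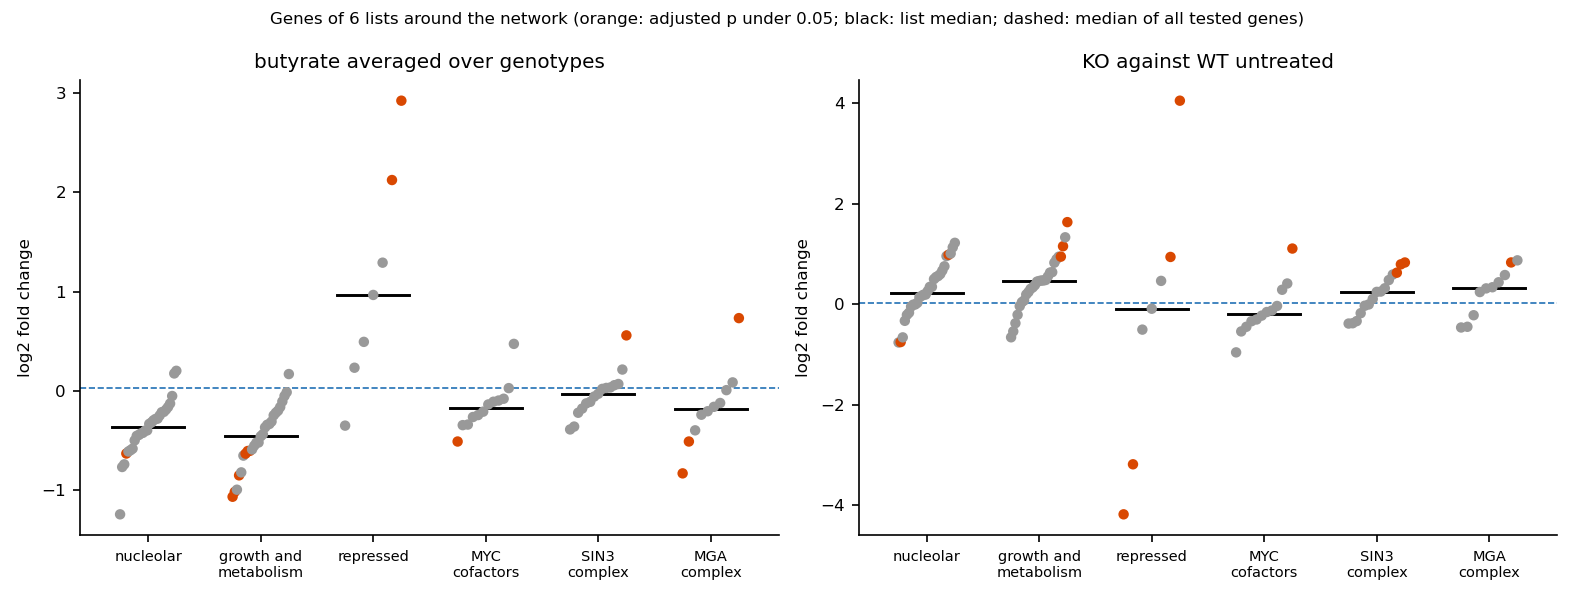
Log2 fold change (vertical axes, on different scales) of the tested genes of 6 lists, for butyrate averaged over the genotypes and for KO against WT in untreated cells, with calls in orange, the list's median as a black line and the median of all tested genes as a dashed line. The medians of the nucleolar and growth lists lie below the dashed line for butyrate, at -0.36 and -0.46, and above it for KO, at 0.22 and 0.46.

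Genes that MYC is known to repress split by gene. Among 7 tested, the cell cycle inhibitor CDKN1A and the matrix protein gene THBS1 rose with butyrate in KO (3.20, adjusted p = 0.0179, and 2.92, adjusted p = 0.0132), and THBS1 in WT as well (2.93, adjusted p = 0.0278). Of all tested genes 2.8% were called higher in KO and 1.8% in WT. CDKN1A was at 14.4, 31.5 and 21.9 CPM in untreated WT and at 1.44, 2.52 and 3.38 CPM in untreated KO, a log2 fold change of -3.19 (adjusted p = 0.00228). NDRG1 was also lower in KO, by -4.19 untreated (adjusted p = 0.00497) and -3.51 treated (adjusted p = 0.0114). The treated value of NDRG1 was -2.72 without WT replicate 3 and -4.24 without KO replicate 3. The stress gene GADD45A (0.94, adjusted p = 0.0136) and THBS1 (4.05, adjusted p = 0.000444) were higher in untreated KO. Calls in untreated cells thus went both ways, 2 of 7 higher and 2 lower, beside 11.7% and 10.9% of all tested genes. In treated KO cells CDKN1A was called lower with the replicate block (-1.21, adjusted p = 0.00880), and for butyrate averaged over the genotypes the block raised the calls from 2 to 4, all higher. In that averaged contrast the block also raised the share of all genes called from 14.6% to 26.5%.

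MXD and MNT dimers act through the SIN3 corepressor. Of the 15 SIN3 complex genes 3 were called higher and 0 lower in untreated KO, where 11.7% of all tested genes were higher: the histone-binding subunit RBBP4 (0.83, adjusted p = 0.0197), ING1 (0.79, adjusted p = 0.0277) and the deacetylase HDAC1 (0.62, adjusted p = 0.0352), which is itself a target of butyrate. RBBP4 (0.72) and HDAC1 (0.64) were called in treated cells too, with adjusted p of 0.0419 and 0.0370, where 10.1% of all tested genes were higher. In the averaged butyrate contrast ING1 was called higher (0.56, adjusted p = 0.0389), beside 9.22% of all tested genes. The replicate block added 2 calls there, both lower: HDAC2 (-0.41, adjusted p = 0.0230) and RBBP4 (-0.38, adjusted p = 0.0200). With the block 12% of all genes were called lower in that contrast.

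Among 10 genes of the MGA complex, RING1 was the 1 called higher in untreated KO (0.83, adjusted p = 0.00572), beside 11.7% of all tested genes. In the averaged butyrate contrast PCGF6, the subunit that defines this complex, was called lower (-0.83, adjusted p = 0.0129), as was WDR5 (-0.51, adjusted p = 0.0479), while RYBP was called higher (0.73, adjusted p = 0.0199). Of all tested genes 5.37% were called lower and 9.22% higher there. Of 12 MYC cofactors the helicase gene RUVBL1 was called higher in KO, at 1.10 untreated (adjusted p = 0.0107) and 0.93 treated (adjusted p = 0.0285), and WDR5 was the call for butyrate. RUVBL1 was the 1 cofactor called higher in each genotype contrast, where 11.7% and 10.1% of all tested genes were. In the parallel MLX branch, which holds 5 genes including TXNIP, 0 were called in any contrast by edgeR (MLXIPL alone had an unadjusted p under 0.05, in untreated KO against WT, where DESeq2 called 1 gene). With the block the cofactors TRRAP (-0.96, adjusted p = 0.0203) and ZBTB17 (-0.56, adjusted p = 0.0419) were called lower in untreated KO. Without it 10.9% of all tested genes were called lower there. Of the 10 MGA complex genes 2 were called higher with the block, RING1 and TFDP1 (0.88, adjusted p = 0.0257), a share near the 16.9% of all genes that it called higher.

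Genes that control MYC protein stability bear on a step these data do not measure. Of 16 tested, AURKA, whose kinase is known to stabilise MYCN and MYC proteins, was called lower with butyrate (-0.73 averaged, adjusted p = 0.00638, and -0.86 in KO, adjusted p = 0.0375). Of all tested genes 5.37% and 0.595% were called lower there. AURKA kept its averaged call in 12 of 12 fits that left out a library, and its call in KO in 1 of 6. Between the genotypes 1 of the 16 was higher and 1 lower in untreated cells, against 11.7% and 10.9% of all tested genes. In treated cells 1 was higher and 2 lower, against 10.1% and 8.89%. The gene called higher in KO was GSK3B, whose kinase marks MYC for degradation (0.85 untreated, adjusted p = 0.0180, and 0.78 treated, adjusted p = 0.0304). The phosphatase subunit PPP2R5A was called lower in KO (-1.16 untreated, adjusted p = 0.000697, and -0.58 treated, adjusted p = 0.0416), and the kinase gene PIM2 lower in treated KO (-1.18, adjusted p = 0.0472). PIM2 kept this call in 1 of 6 fits that left out a library, and was at -0.51 (adjusted p = 0.196) without treated WT replicate 1. GSK3B kept its call in 2 of 6 such fits in each genotype contrast.

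Of 9 transcripts that neighbour the MYC genes, 8 were in the table and 3 were tested. PVT1, the noncoding RNA next to MYC, was at 41.7, 47.6 and 45.8 CPM in untreated KO and 167, 78.3 and 68.2 CPM in treated KO. Its groups did not overlap, and the log2 fold change was 1.21 (adjusted p = 0.0846), beside -0.01 for MYC in the same contrast. With the replicate block PVT1 was called (1.08, adjusted p = 0.0200). TRIT1, a neighbour of MYCL, was called higher in KO (0.63 untreated, adjusted p = 0.0160, and 0.65 treated, adjusted p = 0.0165).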

How the data were processed

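The deposited file holds integer counts of reads per gene symbol for 12 libraries. The submitters' processing notes name FastQC 0.12.1, STAR 2.7.11b and the hg38 build. The counting tool, annotation and use of strand are not given in the sources used here, so genes that share exon sequence with an antisense transcript can share reads: MXD3 overlaps PRELID1 over 731 bases and MNT overlaps AC006435.1 over 1065, and MYCL, MAX, MXI1 and MGA overlap noncoding transcripts over 108 to 510 bases. Library names in the labels tied each column to its sample, and titles gave the groups and replicate numbers. The members and gene lists were chosen with earlier results of these data known.

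Tests used edgeR 4.0.16 in R 4.3.3. After filterByExpr (minimum count 10) 15805 genes remained, TMM scaled the libraries, and group means were fitted by quasi-likelihood over the 12 libraries together (biological coefficient of variation 0.384). Adjusted p-values are Benjamini-Hochberg over all tested genes, with a threshold of 0.05, and come from edgeR unless DESeq2 is named. Differences by replicate number are of log2 CPM with a prior count of 2. RPKM used merged exon lengths of GENCODE basic transcripts (GRCh38). Promoter sequences are RefSeq's (GRCh38.p14). The floor of 3 counts, 0.0953 to 0.162 CPM, covers counting error only.

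Deviations of same-numbered libraries from their group means correlated over genes at 0.153 to 0.453 for butyrate in KO, 0.197 to 0.401 in WT, 0.213 to 0.360 for genotype untreated and 0.305 to 0.595 treated. Libraries of different numbers gave -0.417 to 0.093, -0.434 to 0.182, -0.273 to 0.061 and -0.508 to 0.331 in the same order, so the treated ranges overlap. Differences were therefore also given by number. The fit behind the calls did not include the number, and the replicate block was an alternative. What a number marks is not stated. Replicates of a group differed well beyond sampling noise (chi-square over degrees of freedom of 37.2 or more).

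Named genes are all members; per list and contrast the called genes, up to the 3 largest rises and 3 largest falls, or up to 2 with the smallest p where none was called; the 5 nearest profiles of MYC and 3 of each other member; and SLC48A1. Some results for single genes are left out of this text. Genes named only for a value with the replicate block were chosen after their values were seen. The code was checked on simulated data. Alternatives were RLE and library-size scaling, DESeq2 1.42.0, no filter, at least 10 counts in every library, the replicate block, leaving out the 4 libraries numbered 1, and leaving out each library in turn.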

Additional observations from a re-analysis of the deposited data

How the results depend on the processing

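The 54 results for a tested member and contrast were recomputed under the alternatives, which gave 810 values. The call of MXD1 in treated cells held in all 13 of its own, 0 values changed sign where either was called, and 12 values gained a call. A further 121 values had the other sign, with both short of the threshold. With RLE size factors, with at least 10 counts in every library, with DESeq2 and without WT butyrate replicate 3, MAX was called for butyrate averaged over genotypes (adjusted p = 0.0487, 0.0343, 0.0196 and 0.0496), 1 member in each case. With no filter 2 members were called in treated cells, MYCN being the addition, and 2 genes for the interaction.

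With the replicate block 1361 genes were called for butyrate in WT, 1852 in KO, 4196 averaged, 4612 for KO against WT in treated cells and 3 for the interaction, against 372, 537, 2305, 3009 and 0 without it, and 1 member was called (MAX) in KO and in the averaged contrast. The block changed no other member's call. Without the libraries numbered 1 the counts were 1884, 2164 and 4735 for butyrate, and 9 for the interaction, with 1 member called in the averaged contrast, 3 between untreated and 2 between treated genotypes. DESeq2 called 1331 and 1538 genes for butyrate in WT and KO and 86 for the interaction. At least 10 counts in every library left 304 calls for butyrate in KO, 2334 and 1947 between untreated and treated genotypes and 1 for the interaction, with fewer genes tested.

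Leaving out each library in turn gave 43 to 1243 calls for butyrate in WT, 48 to 833 in KO, 1198 to 3795 averaged, and 0 to 2 for the interaction, and 1 to 2 members called between treated genotypes and 0 to 1 in the averaged contrast. Library size alone moved the median of all genes from 0.00 to 0.12 for butyrate in KO. Of 657 recomputed calls of list genes 493 held, 164 missed the threshold and 0 reversed. Of the 46 such calls 13 held whichever single library was left out: APEX1, CDKN1A, PPP2R5A, RING1, NDRG1 and THBS1 between untreated genotypes, NDRG1 and THBS1 between treated ones, and AURKA, CCND2, CDKN1A, PCGF6 and THBS1 for butyrate averaged over genotypes. Depth limits MYCN alone among the members. With 3 libraries a group and opposite butyrate responses by replicate number, the MYC and MNT responses could not be given one direction.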
